A study of Mus musculus with 13 samples.

Results

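The MHC class II genes described here were 7 genes of antigen presentation to CD4 T cells, taken by symbol from both gene count tables: *H2-Aa*, *H2-Ab1* and *H2-Eb1*, which encode chains of the class II molecules, *Cd74*, which encodes the invariant chain, *H2-DMa* and *H2-DMb1*, which encode chains of the peptide exchange factor H2-DM, and *Ciita*, the transactivator of the group. They are 7 of the 24417 named genes in each table. Of these members, 4 had at least 1 read in some library (*H2-Aa*, *Cd74*, *H2-DMa* and *Ciita*), and 3 were listed at 0 in all 13 libraries (*H2-Ab1*, *H2-Eb1* and *H2-DMb1*). The set was proposed because *H2-Aa* stood out among the genes higher in rescued than in control Treg cells, so the members' differences among the male libraries are descriptions: no p-value is given for them, and edgeR's calls are only counted.

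Bulk RNA-seq was done on CD4 T cells double-sorted from spleen and lymph nodes of C57BL/6 mice carrying alleles of *Foxp3*, the transcription factor that defines Treg cells. In the *Foxp3*LSL allele a Thy1.1 reporter and a STOP cassette block the Foxp3 protein, and Thy1.1 marks cells that would have become Treg cells, the Treg “wannabes”. In the male experiment every mouse received 4-hydroxytamoxifen on postnatal day 14 and was 21 days old at analysis: control Treg cells came from healthy *Foxp3*DTR-GFP/y *Cd4*creERT2 mice (n = 3), rescued Treg cells (n = 3) from males of genotype *Foxp3*LSL/y *Cd4*creERT2, in which Cre from the *Cd4* locus removes the cassette, and Treg “wannabes” from *Foxp3*LSL/y *Cd4*wt mice, which lack Cre and stay diseased (n = 2). In the female experiment every mouse received diphtheria toxin and was 9 to 11 weeks old: resting “wannabes” came from *Foxp3*LSL/WT *Cd4*wt mice, whose other allele provides toxin-insensitive Treg cells (n = 3), and activated “wannabes” from *Foxp3*LSL/DTR *Cd4*wt mice, whose Treg cells carry the toxin receptor and are removed (n = 2). Rescued and control Treg cells therefore differ in *Foxp3* allele and health together. Rescued Treg cells and “wannabes” differ in *Cd4* allele, Foxp3 protein, sort gate and health of the mice. The paper reports that T cell activation in rescued males fell within a week of treatment. Control Treg cells and “wannabes” differ in all of these, and within each pair these factors cannot be told apart.

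Class II molecules display peptides from endosomes on B cells, dendritic cells, macrophages and thymic epithelium. The invariant chain guides them to endosomes and fills their groove, H2-DM trades its remnant for peptide, and H2-DO restrains H2-DM. The genes are switched on together by CIITA, which binds no DNA itself but docks on RFX, CREB and NF-Y proteins at a shared promoter module. Mouse T cells are generally held to make little class II of their own and can take up class II protein from the cells they touch, which RNA does not record.

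Between 25556783 and 36659638 reads were counted on named genes per library (median 31462226). *Thy1* followed the labels, at 196 to 327 CPM (read counts scaled to library size with edgeR's TMM factors) in male “wannabes” against 36.4 to 46.7 in both Treg groups. *Foxp3* RNA was lowest in male “wannabes”, at 84.2 to 99.8 CPM. It stood at 167 to 252 CPM in control and 865 to 1110 in rescued Treg cells. The labels name both of these as Treg cells and do not account for that difference (log2 fold change 2.18, standard error 0.18). All 6 T cell markers examined were detected in every library. Levels are compared within an experiment only, since the experiments were fitted apart.

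The shared promoter module is shown because it is the feature by which these genes are known to be regulated together, and it is present both in a member that was counted and in members that were listed at 0. RefSeq promoters of GRCm38.p6 (250 bases before to 50 after each start) were searched on both strands for GNAAC, then 27 or 28 bases, then ATTGG, letters chosen after these promoters had been read. The capitals mark letters of the X box core (GNAAC) and of the Y box (ATTGG). Each sequence is 5′ to 3′ on the gene's own strand.
*H2-Aa*, chr17:34287855-34287916, minus strand: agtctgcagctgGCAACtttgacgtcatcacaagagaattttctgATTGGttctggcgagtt
*H2-Eb1*, chr17:34305764-34305824, plus strand: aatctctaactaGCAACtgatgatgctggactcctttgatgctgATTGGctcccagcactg
*H2-DMb1*, chr17:34153085-34153146, plus strand: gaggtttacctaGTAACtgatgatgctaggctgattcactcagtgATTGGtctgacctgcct
*H2-Oa*, chr17:34092291-34092352, plus strand: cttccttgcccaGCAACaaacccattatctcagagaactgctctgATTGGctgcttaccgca
The match began 81 bases before the start in *H2-Aa*, 91 in *H2-Eb1*, 94 in *H2-DMb1* and 76 in *H2-Oa*, which encodes a chain of H2-DO. It was also present in *H2-Eb2*, and absent from the windows of *H2-Ob* and *H2-DMb2*. Of 32851 promoters in the table, 110 (0.335%) held these letters on either strand. Neither start of *H2-DMa* held them, which says only that these letters are not in that window. *H2-Ab1*, *Cd74* and *Ciita* had no entry.

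*H2-Aa*, the alpha chain of the class II molecule I-A, was almost unread in control Treg cells and had more reads in every rescued and “wannabe” library of males. It lies on chromosome 17 of GRCm38 from 34282744 to 34287823, and no other annotated gene shares its exons. The 3 control libraries held 0, 12 and 0 counts. The rescued libraries held 265, 65 and 73 counts, and the “wannabe” libraries 383 and 305. The groups did not overlap, and rescued replicate 1 lay well above the other rescued libraries.
The mean was 0.111 ± 0.193 CPM (SD, n = 3) for control Treg cells, 4.08 ± 3.09 CPM (SD, n = 3) for the rescued and 10.5 ± 0.677 CPM (SD, n = 2) for the “wannabe” group. On the log2 scale rescued Treg cells lay 5.11 above controls (standard error 1.14) and “wannabes” 6.47 above them (standard error 1.22). All 12 control reads came from replicate 2. With that library left out the remaining control libraries were at 0, and the fitted log2 fold change to rescued Treg cells, 10.05, then depends on the prior count and is no bound. Rescued replicate 1 held 7.63 CPM and the other rescued libraries 2.57 and 2.04, against 0.334 CPM in control replicate 2. The difference of rescued Treg cells from “wannabes” was −1.36 on the log2 scale (standard error 0.99), little more than its error.

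*Cd74*, the invariant chain, had the most reads per length of the members in control and rescued Treg cells, and it was higher in rescued Treg cells and in “wannabes” than in control Treg cells. The gene lies on chromosome 18 from 60803848 to 60812652. Its counts were 2245, 1920 and 1930 in control Treg cells and 6153, 4424 and 6185 in rescued Treg cells. Scaled to depth, the rescued libraries lay close together, at 177, 175 and 173 CPM, against 73.4, 53.4 and 55.5 CPM in the controls, so the groups did not overlap.
The “wannabe” libraries held 6430 and 6395 counts, or 184 and 210 CPM. Against controls the log2 fold change was 1.53 (standard error 0.17) for rescued Treg cells and 1.70 (standard error 0.18) for “wannabes”. Rescued Treg cells lay 0.17 below “wannabes” on the log2 scale, which is within the standard error of 0.18 (log2 fold change −0.17).

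*H2-DMa*, the alpha chain of H2-DM, differed between all 3 male groups: it was lowest in control Treg cells, higher in rescued Treg cells and highest in “wannabes”. The gene lies on chromosome 17 from 34119541 to 34139101. Control libraries held 1312, 2534 and 1968 counts, rescued libraries 3920, 3653 and 3907, and “wannabe” libraries 11282 and 15325. No library of one group reached the range of the next.
The means were 56.7 ± 13.8 CPM (SD, n = 3), 122 ± 19.2 CPM (SD, n = 3) and 413 ± 127 CPM (SD, n = 2) in that order. Against controls the log2 fold change was 1.11 (standard error 0.23) for rescued Treg cells and 2.87 (standard error 0.25) for “wannabes”, and it was −1.76 (standard error 0.25) from “wannabes” to rescued Treg cells. *H2-DMa* shares 360 exonic bases with *Brd2* on the opposite strand, and the kit does not mark strand. *Brd2* had a log2 fold change of 0.14 (standard error 0.18) in rescued against control Treg cells, the sign of *H2-DMa*, and the opposite sign in the other male comparisons, with −1.06 (standard error 0.21) from control Treg cells to “wannabes” and 1.20 (standard error 0.21) from “wannabes” to rescued Treg cells.

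*Ciita*, the transactivator, showed no such order. The gene lies on chromosome 16 from 10480059 to 10528418. It held 50, 109 and 126 counts in control Treg cells, 36, 97 and 54 in rescued Treg cells and 34 and 79 in “wannabes”, and all 3 groups overlapped. The mean was 2.76 ± 1.02 CPM (SD, n = 3) in control Treg cells, 2.13 ± 1.5 CPM (SD, n = 3) for the rescued and 1.78 ± 1.15 CPM (SD, n = 2) for the “wannabe” group.
The log2 fold changes were −0.38 (standard error 0.74), −0.63 (standard error 0.84) and 0.25 (standard error 0.83) for rescued against control, “wannabe” against control and rescued against “wannabe”, each smaller than its error. *Ciita* shares 329 exonic bases with the antisense gene *Dexi*, so some of these few reads may belong to that gene.

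**Figure D1:**
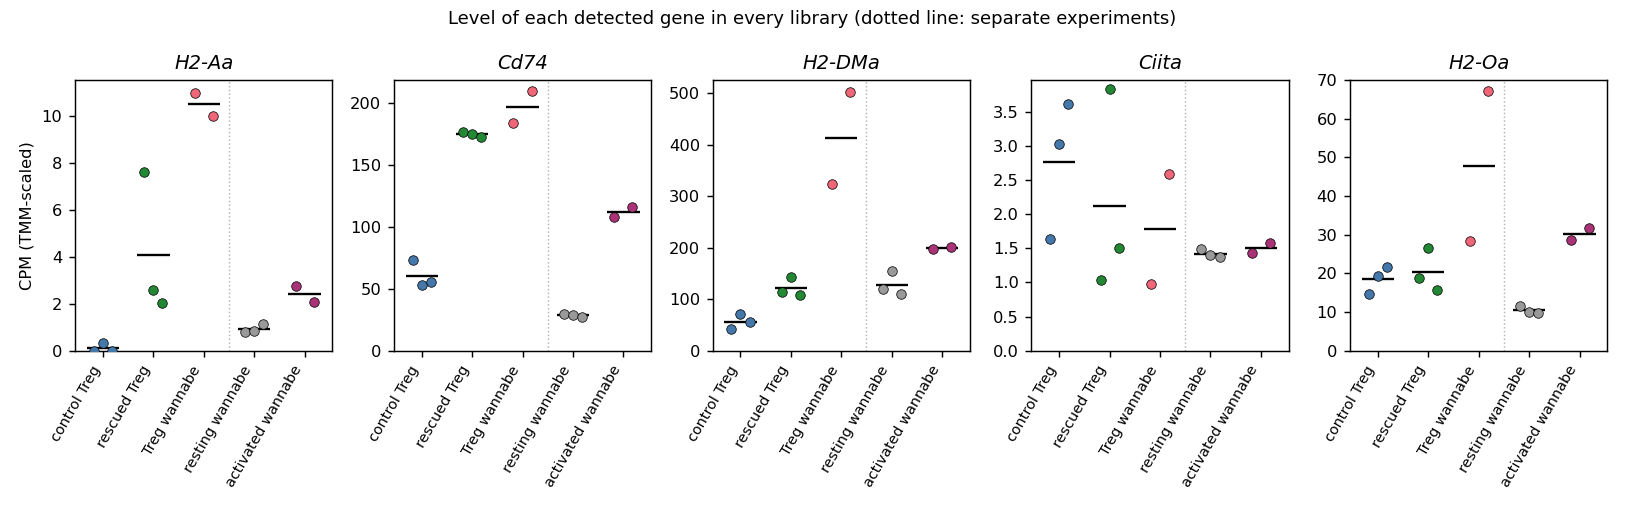
Level of *H2-Aa*, *Cd74*, *H2-DMa*, *Ciita* and *H2-Oa* in every library. Each point is 1 library, bars are group means, the vertical axes are TMM-scaled CPM from 0 with a scale per gene, and the dotted line separates the male from the female experiment. *Cd74* in the 3 rescued libraries lies between 173 and 177 CPM, above every control library, while *Ciita* overlaps between groups.

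Calls were made with edgeR at an adjusted p under 0.05, over the 14925 genes tested in the male libraries. By this test 3 of the 4 members tested were called higher in rescued than in control Treg cells, where 1.43% of all genes tested were called higher. In “wannabes” against control Treg cells 3 of the 4 were called higher, beside 6.27% of all genes. In rescued Treg cells against “wannabes” only *H2-DMa* of the 4 was called, lower, beside 4.06% of all genes. These libraries include those on which the set was proposed, so the counts describe them and nothing is read from them. The median log2 fold change of the 4 members was 1.32, 2.28 and −0.77 in these comparisons, beside −0.03, −0.09 and 0.00 over all genes tested. Leaving out any 1 of the 8 male libraries kept the rescued against control call of *Cd74*. The calls of *H2-Aa* and of *H2-DMa* there were lost without control replicate 1 or 3 or any 1 rescued replicate, with log2 fold changes of 4.29 to 5.43 and 0.94 to 1.18 in those fits.

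The female experiment gives the same genes in mice outside the comparison in which *H2-Aa* stood out. Removal of Treg cells from *Foxp3*LSL/DTR females was accompanied by more *Cd74*, *H2-Aa* and *H2-DMa* RNA in “wannabes”, and *Ciita* was not detectably different. *Cd74* held 840, 850 and 768 counts in resting and 3405 and 3621 in activated “wannabes”. Its level was 28.6 ± 1.53 CPM (SD, n = 3) and 112 ± 5.69 CPM (SD, n = 2), a log2 fold change of 1.97 (standard error 0.09, edgeR adjusted p = 0.000249). Leaving out any 1 of the 5 libraries kept this call, with log2 fold changes between 1.91 and 2.02.
*H2-Aa* held 23, 25 and 32 counts in resting and 86 and 64 in activated “wannabes”, again without overlap. The log2 fold change was 1.36 (standard error 0.35, edgeR adjusted p = 0.0363). At these counts the call was fragile: it was kept only without resting replicate 3 (adjusted p = 0.0498) and lost without resting replicate 1 (0.0802), resting replicate 2 (0.064), activated replicate 1 (0.243) or activated replicate 2 (0.135), with log2 fold changes between 1.14 and 1.54.
*H2-DMa* held 3368, 4490 and 3137 counts in resting and 6196 and 6253 in activated “wannabes”, at means of 128 ± 23.4 CPM (SD, n = 3) and 199 ± 2.7 CPM (SD, n = 2). The log2 fold change was 0.64 (standard error 0.14, edgeR adjusted p = 0.0249). The call was lost without resting replicate 1 (adjusted p = 0.051), activated replicate 1 (0.127) or activated replicate 2 (0.144). *Brd2*, its antisense neighbour, had a log2 fold change of −0.21 (edgeR adjusted p = 0.131).
*Ciita* held 42, 41 and 39 counts in resting and 45 and 49 in activated “wannabes”. The log2 fold change was 0.08 (standard error 0.32, edgeR adjusted p = 0.877), so a difference of the size seen for *Cd74* lies well beyond its error, while a smaller one was not detectable at this depth. In all, 3 of the 4 members tested were called higher, beside 11.3% of the 13166 genes tested.

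**Figure D2:**
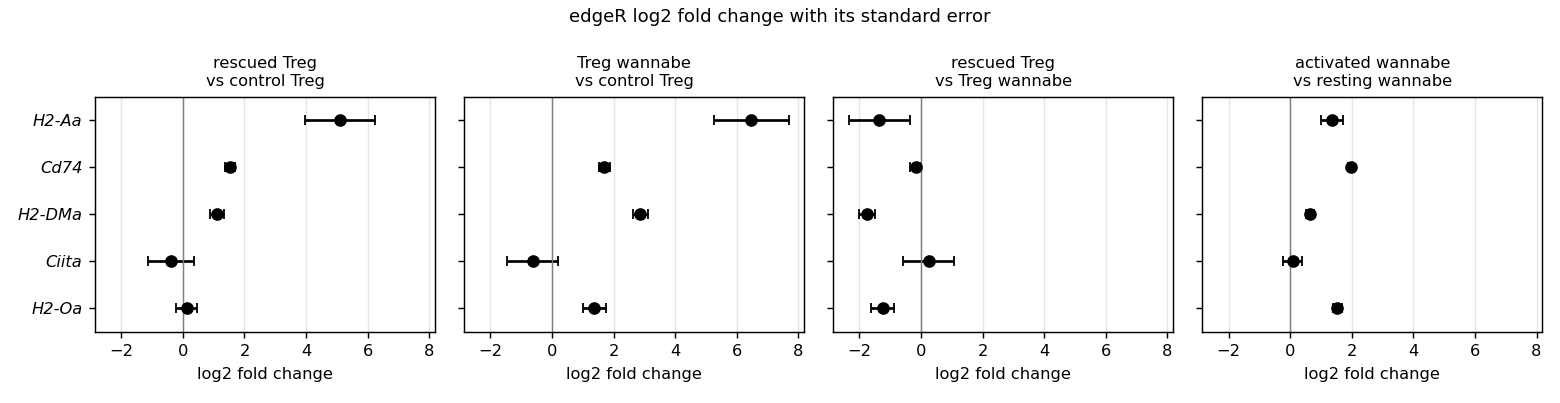
edgeR log2 fold change of 4 class II genes and *H2-Oa* in the 4 comparisons. Points are estimates and bars are 1 standard error, and values right of 0 are higher in the group named first. *Cd74* lies right of 0 in both comparisons with control Treg cells and in activated against resting “wannabes”, and *Ciita* spans 0 in all 4.

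Per kb of annotated exon, the members stood far apart, and the order of *Cd74* and *H2-DMa* differed between groups. *Cd74* had 36.2 CPM per kb in control and 104 in rescued Treg cells against 16.4 and 35.4 for *H2-DMa*, whereas in male “wannabes” the genes were near each other at 117 and 120 CPM per kb. In resting “wannabes” *H2-DMa* was above *Cd74*, at 37.1 against 17 CPM per kb, and in activated “wannabes” they stood at 57.8 and 67. As a share of *Cd74* within a library, *H2-DMa* per kb was 195 to 257% in resting and 84.1 to 88.6% in activated “wannabes”.
*H2-Aa* stood far lower on this scale. Its level per kb was 0.522 to 1.9% of that of *Cd74* in rescued Treg cells, 2.11 to 2.63% in male “wannabes”, 1.21 to 1.84% in resting and 0.781 to 1.12% in activated “wannabes”. Its exon length covers all annotated transcripts and may understate it. *Ciita* lay between 0.149 and 0.29 CPM per kb in the group means. Of all genes with a length, 98.2% lay below *Cd74* in rescued Treg cells, and 56.8% lay below *H2-Aa*.

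*H2-Ab1*, the beta chain that pairs with the product of *H2-Aa*, *H2-Eb1*, the beta chain of I-E, and *H2-DMb1*, a beta chain of H2-DM, were listed at 0 in every library, although the partner chains of *H2-Ab1* and *H2-DMb1* were counted. These zeros are not read as absence, because *H2-D1*, a class I gene carried by nearly all cells of this strain, was also listed at 0 in all 13 libraries. From *H2-K1* to *H2-D1* (chr17:33996017-35267499) the annotation holds 85 protein-coding genes, of which 81 are in the tables. Of the 12 whose names begin with H2-, 7 (58.3%) were at 0 in all libraries, and of the other 69 it was 7 (10.1%). The 7 H2- genes were *H2-Ab1*, *H2-Eb1*, *H2-Eb2*, *H2-Ob*, *H2-DMb1*, *H2-DMb2* and *H2-D1*. Over all protein-coding genes of the tables the share was 12.7%. Which reads these genes could receive was not tested, so the 3 members carry no information on class II beta chains.

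**Figure D3:**
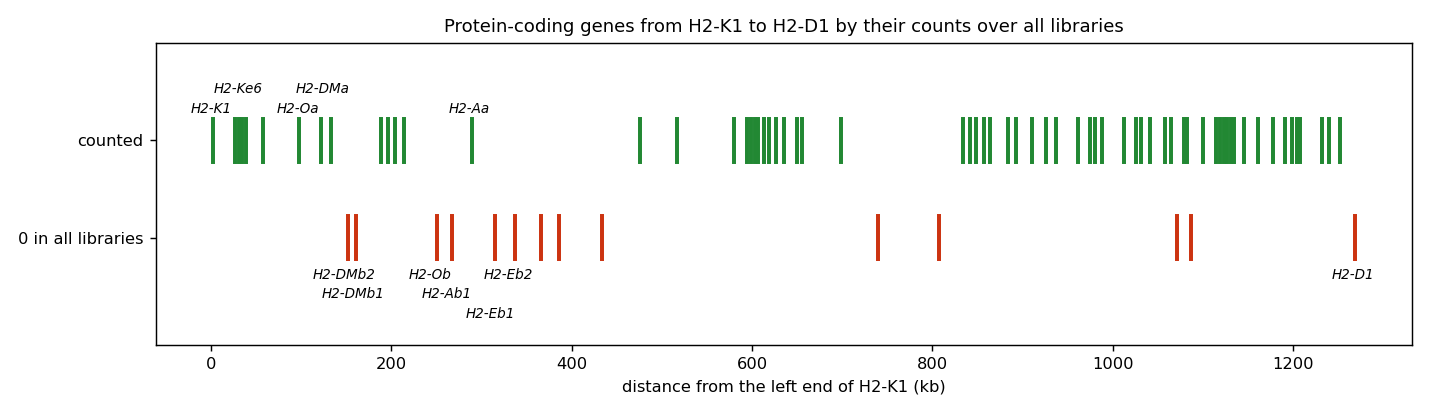
Protein-coding genes from *H2-K1* to *H2-D1* by distance in kb. Bars in the upper row had at least 1 count in some library and bars in the lower row had 0 counts in all 13, and genes whose names begin with H2- are labelled. *H2-Aa* and *H2-DMa* are in the upper row, and their partner chains *H2-Ab1*, *H2-DMb1* and *H2-DMb2* are in the lower row with *H2-D1*.

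Beyond the members, 44 genes of the pathway were listed, of which 43 were in the tables and 39 could be tested. *H2-Ea* was not there under that name, and the entry *H2-Ea-ps* held at most 10 counts in any library. The only tested gene among the further class II chains was *H2-Oa*. It held 451, 694 and 750 counts in control Treg cells, 649, 670 and 560 in rescued Treg cells, 991 and 2046 in male “wannabes”, 328, 289 and 278 in resting and 895 and 989 in activated “wannabes”. It rose in “wannabes” against control Treg cells (log2 fold change 1.37, standard error 0.37, edgeR adjusted p = 0.0284), was lower in rescued Treg cells than in “wannabes” (−1.24, standard error 0.37, adjusted p = 0.047) and rose in activated “wannabes” (1.53, standard error 0.14, adjusted p = 0.00113). In rescued and control Treg cells it stood at 20.3 and 18.5 CPM and was not called. With any 1 female library left out the call in activated “wannabes” was kept. Among the males the call against controls was lost without “wannabe” replicate 2 (log2 fold change 0.66) or any 1 control library, and that against rescued Treg cells was kept only without “wannabe” replicate 1. Its counts were 89.5 to 101% of those of the antisense transcript *BC051537*, with which it shares 321 exonic bases, so reads of the pair cannot be told apart.

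The proteins that hold CIITA at the promoter, and genes known to raise or lower *Ciita*, were 12 of the listed genes. In rescued against control Treg cells edgeR called 1 of them, *Prdm1*, which encodes the repressor Blimp-1 (log2 fold change 1.46, standard error 0.29, edgeR adjusted p = 0.0276), beside 1.43% of all genes called higher. DESeq2 called 3, with *Rfxap* (edgeR log2 fold change 2.00, DESeq2 adjusted p = 0.00843) and *Irf8* (0.82, 0.0253) added. In male “wannabes” 4 of the 12 were lower than in control Treg cells, beside 9.92% of all genes, and 0 were higher by edgeR (2 at an unadjusted p under 0.05, and 0 by DESeq2), beside 6.27% of all genes. They were *Rfxap* (−2.40, edgeR adjusted p = 0.0398), *Rfx5* (−1.07, 0.0438), *Nfyc* (−0.92, 0.00395) and *Socs1*, an inhibitor of cytokine signals (−2.36, 0.0168). With 1 library left out, *Nfyc* kept its call in 8 of 8 fits. *Prdm1* lost its call without any 1 control library or rescued replicate 3 (log2 fold changes 1.05 to 1.65 over the 8 fits), *Rfxap* without any 1 control or “wannabe” library, *Socs1* without control replicate 2 or “wannabe” replicate 1, and *Rfx5* kept its call only without “wannabe” replicate 2.
*Rfxap* encodes a subunit of the RFX complex. It had 275, 207 and 232 counts in control Treg cells, 2056, 336 and 472 in rescued Treg cells and 29 and 57 in male “wannabes”. From “wannabes” to rescued Treg cells its log2 fold change was 4.41 (standard error 0.77, edgeR adjusted p = 0.00342). In that comparison 4 of the 12 genes were called higher, beside 10.0% of all genes, and 0 lower, beside 4.06%. The others were *Socs1* (2.96, edgeR adjusted p = 0.00628), *Irf8* (1.43, 0.00717) and *Nfyc* (0.78, 0.00801). With 1 library left out their log2 fold changes were 2.35 to 3.97, 1.26 to 1.65 and 0.75 to 0.83. Rescued replicate 1 held the most *Rfxap* of the rescued libraries. In the female libraries *Rfxap* lay between 1697 and 1948 counts. In activated “wannabes” *Socs1* rose (0.86, edgeR adjusted p = 0.0197) and *Creb1* fell (−0.54, 0.00744). The *Creb1* call was lost without either activated library and the *Socs1* call without activated replicate 2 (0.48).

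Interferon-gamma is the best known inducer of CIITA outside professional antigen-presenting cells. *Ifng* itself was not called by edgeR in any comparison, and DESeq2 called it higher in rescued against control Treg cells (adjusted p = 0.00579) and in activated “wannabes” (0.018). Its level was 12.3 CPM in rescued and 3.43 in control Treg cells (log2 fold change 1.84, standard error 0.49, edgeR adjusted p = 0.0845) and 15.3 CPM in activated against 7.06 in resting “wannabes” (1.11, standard error 0.36, adjusted p = 0.0711). Its receptor chain *Ifngr1* rose in activated “wannabes” (0.85, edgeR adjusted p = 0.00312), as did *Jak2* (0.96, 0.0257). Its partner kinase gene *Jak1* was lower in male “wannabes” than in control Treg cells (−1.24, edgeR adjusted p = 0.00105) and higher in rescued Treg cells than in “wannabes” (1.38, 0.0004). Over the 8 fits that left out 1 library these log2 fold changes were −1.36 to −1.13 and 1.31 to 1.45. In rescued Treg cells against “wannabes” *Ifngr1* was higher (0.70, edgeR adjusted p = 0.0311) and *Jak2* lower (−0.79, 0.0348), each kept in 3 of 8 such fits. *Ifi30*, an endosomal reductase that prepares antigens for class II, rose in male “wannabes” against control Treg cells (1.45, edgeR adjusted p = 0.00377) and in activated “wannabes” (1.03, 0.0191). It was lower in rescued Treg cells than in “wannabes” (−0.89, standard error 0.25, edgeR adjusted p = 0.0385). That call was lost without control replicate 3 or any 1 rescued library, and its log2 fold change was −0.96 to −0.80 over all fits that left out 1 library. *Cd83*, which protects surface class II from turnover, rose in activated “wannabes” (1.06, edgeR adjusted p = 0.011), and the protease gene *Ctsb* fell (−0.68, 0.0209). Of the costimulatory ligands of antigen-presenting cells, *Cd86* was lower than in control Treg cells both in rescued Treg cells (−1.58, edgeR adjusted p = 0.0118) and in “wannabes” (−1.73, 0.00396), opposite to *Cd74*. The *Cd86* call in rescued Treg cells was lost without control replicate 3 or rescued replicate 2. In activated “wannabes” the calls of *Ifi30*, *Cd83*, *Ctsb* and *Jak2* were lost without either activated library, and that of *Jak2* also without resting replicate 2, while *Ifngr1* kept its call in 5 of 5 fits.

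Class I presentation was set beside the members. In activated “wannabes” 7 of its 10 tested genes rose, beside 11.3% of all genes: *Tap1* (0.70, edgeR adjusted p = 0.00207), *Tap2*, *Tapbp*, *Psmb8*, *Psmb9* (0.81, 0.00136), *Psmb10* and *Erap1*. *B2m* and *H2-K1*, parts of the class I molecule itself, were not called (−0.01 and −0.05), nor was *Nlrc5*, the class I counterpart of *Ciita* (0.18, edgeR adjusted p = 0.127). In rescued against control Treg cells edgeR called 0 of the 10, with 0 at an unadjusted p under 0.05 and 0 by DESeq2. Of all genes tested 1.43% were called higher and 0.864% lower there, so this count does not set the 10 genes apart. *Tap1* and *Tap2* had log2 fold changes of 0.45 (standard error 0.22) and 0.37 (standard error 0.20) in that comparison. In male “wannabes” against control Treg cells *Tapbp* was the 1 gene called of the 10 (0.57, edgeR adjusted p = 0.0464), beside 6.27% of all genes. DESeq2 called 2 there, with *Psmb8* (DESeq2 adjusted p = 0.022) added, and the *Tapbp* call was kept in 2 of the 8 fits that left out 1 library, those without control replicate 2 or “wannabe” replicate 1. Without “wannabe” replicate 1 the class I calls there numbered 5 of the 10, and without “wannabe” replicate 2 they numbered 0. Without either activated library the calls in activated “wannabes” numbered 2 of the 10, *Psmb9* and *Tap1*. Over all 39 tested genes of the pathway, 1 was higher and 1 lower in rescued against control Treg cells (0.864% of all genes tested were lower), 3 were higher and 6 lower in “wannabes” against control Treg cells (9.92% lower), 6 were higher and 3 lower in rescued Treg cells against “wannabes” (10.0% higher), and 14 were higher and 2 lower in activated against resting “wannabes” (11.2% lower).

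Because class II RNA can come from a few antigen-presenting cells in a sort, markers of such cells were read in the same libraries. In bulk samples, fewer cells of a type and less RNA per cell cannot be told apart. Of 16 B cell markers, 13 were in the tables, and their sum was 45.7 to 57.3 CPM in control Treg cells, 51.5 to 53.5 in rescued Treg cells and 44.9 to 63.6 in male “wannabes”. This sum did not follow *H2-Aa* or *Cd74* across the male groups. Of the defining B cell genes, *Ms4a1* held at most 2 counts in any male library, in all 3 groups. *Cd79a* was counted throughout, at 170, 228 and 355 counts in control Treg cells, 214, 95 and 317 in rescued Treg cells and 158 and 215 in “wannabes”, so these groups overlapped, and the control library with the 12 *H2-Aa* reads was also the male library with the most *Pax5* (97 counts).
In the female libraries the B cell sum moved with the members, from 18.5 to 20.1 CPM in resting to 77.6 to 80 in activated “wannabes”. Most of that was *Cd22*, at 0, 30 and 15 counts in resting and 1496 and 1482 in activated “wannabes”, and *Cd79b*, at 246, 256 and 215 against 688 and 631. Of the defining genes, *Cd79a* held 68, 68 and 56 counts in resting and 77 and 62 in activated “wannabes”, *Ms4a1* 12, 8 and 5 counts in resting and 1 and 4 in activated “wannabes”, and *Pax5* 0, 1 and 0 against 5 and 3.

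Dendritic cell markers had a low sum that followed the order of the members. It was 1.04 to 1.96 CPM in control Treg cells, 2.41 to 3.75 in rescued Treg cells, 4.3 to 7.39 in male “wannabes”, 3.61 to 5.01 in resting and 8.09 to 8.33 in activated “wannabes”. All 8 markers were in the tables. *Xcr1*, a chemokine receptor and a defining marker of one dendritic cell type, made up much of the sum, with 57, 13 and 4 counts in control Treg cells, 34, 43 and 62 in rescued Treg cells, 220 and 92 in male “wannabes”, 61, 115 and 60 in resting and 149 and 177 in activated “wannabes”. The counts of all 4 defining markers together were 30 to 59 per library in control Treg cells, 49 to 127 in rescued Treg cells, 128 to 257 in male “wannabes”, 91 to 122 in resting and 181 to 246 in activated “wannabes”, so their sum, most of it *Xcr1* in male and activated “wannabes”, moved with the members. Of the other defining markers, *Zbtb46* did not follow that order in males, with 2, 44 and 25 counts in control Treg cells, 52, 5 and 39 in rescued Treg cells and 36 and 36 in “wannabes”, *Clec9a* was at 0 in all 13 libraries and *Flt3* held 0, 2 and 1 counts in control Treg cells, 0, 1 and 26 in rescued Treg cells, 1 and 0 in male “wannabes”, 4, 2 and 5 in resting and 1 and 2 in activated “wannabes”. The part of dendritic cell RNA in the class II counts was not tested.
All 14 monocyte and macrophage markers were in the tables. Their sum was 9.88 to 26.4 CPM in control Treg cells, 14.9 to 17.5 in rescued Treg cells and 6.65 to 7.29 in male “wannabes”. The 4 defining markers together held 4 to 18 counts per library in control Treg cells, 16 to 61 in rescued Treg cells and 4 to 35 in male “wannabes”. The median log2 fold change of the 7 markers tested was 3.01 in rescued against control Treg cells, beside −0.03 over all genes. In “wannabes” against control Treg cells it was 0.15, beside −0.09. In females the sum moved with the members, from 3.37 to 8.86 CPM in resting to 15.4 to 16.2 in activated “wannabes”. The defining markers *Csf1r* and *C1qa* were at 0 in both male “wannabe” libraries, where *Adgre1* held 35 and 3 counts. In rescued replicate 1, the library with the most *H2-Aa* of its group, *Lyz2* held 48 counts against 3 and 1 in the other rescued libraries. *Siglech*, of plasmacytoid dendritic cells, was at 0 in every male library and at most 6 counts in any female library. Plasma cell markers ran opposite to the members in females, at 9.2 to 26.3 CPM in resting and 0.732 to 1.03 in activated “wannabes”. The part of macrophage RNA in the class II counts of any group, that rescued library included, was not tested.

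**Figure D4:**
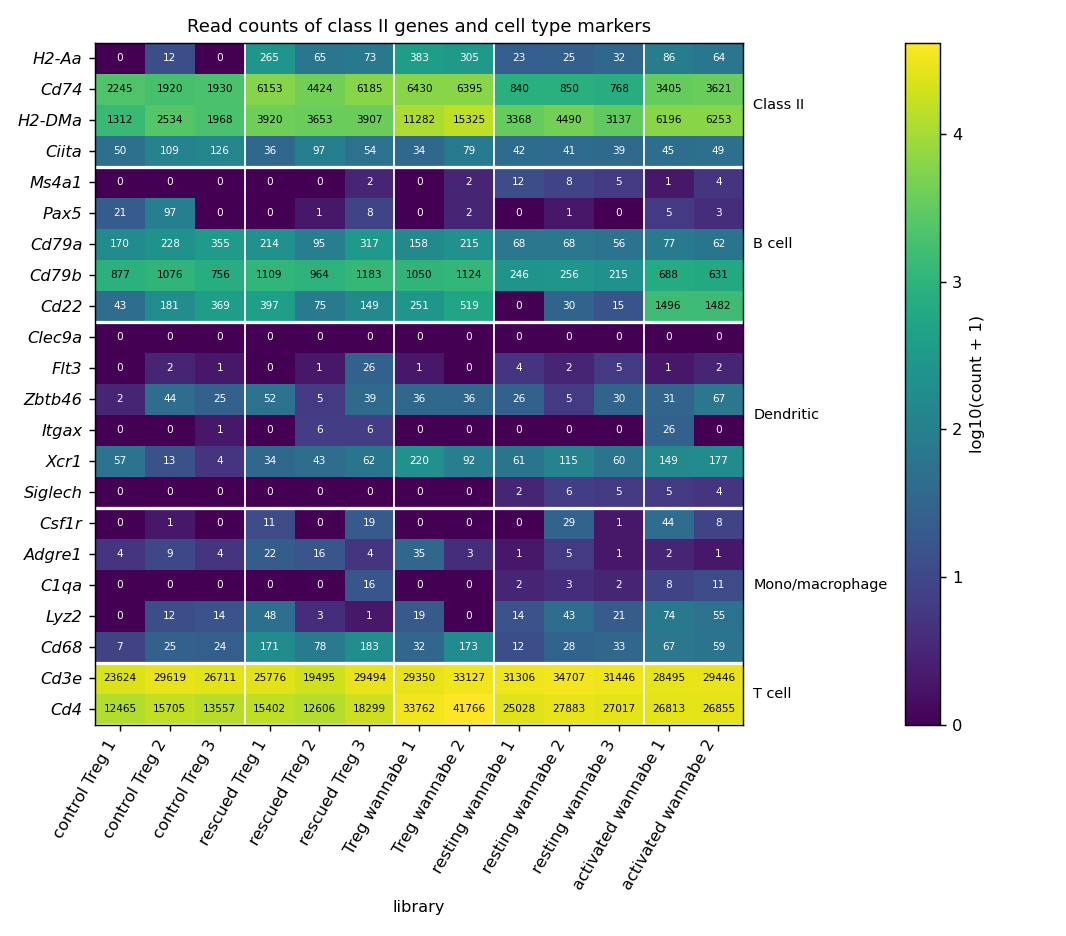
Read counts of 4 class II genes and of markers of other cell types in each of the 13 libraries. Rows are genes grouped by cell type, columns are libraries, colour is log10(count + 1) and the printed number is the count. *Cd74* reaches 6430 counts in male “wannabe” replicate 1, in which *Ms4a1*, *Pax5*, *Clec9a* and *Csf1r* are at 0 while *Cd79a* holds 158, *Xcr1* 220 and *Adgre1* 35 counts, and *Cd22* is highest in the activated “wannabes”.

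The genes with the pattern most like the members were found by Pearson correlation of log2 CPM over the 8 male libraries with the mean log2 CPM of *H2-Aa*, *H2-Ab1*, *H2-Eb1* and *Cd74*. As *H2-Ab1* and *H2-Eb1* were at 0, this is the pattern of *H2-Aa* and *Cd74*. The points share libraries and groups, and among 12854 genes high values are found by search, so the values are a description. The first was *Hadh*, an enzyme of fatty acid oxidation (r = 0.991), followed by *Pdlim4* (0.985), *Aldh9a1* (0.983), *Hrh4*, a histamine receptor (0.978), *Map3k6* (0.976), *Pik3ap1*, an adaptor for PI3K (0.973), *Prss30* (0.971), *Ier3* (0.969), *Aipl1* (0.969) and *Ifitm1*, of the interferon-induced transmembrane family (0.969). *H2-DMa* ranked 212 (r = 0.867), *H2-Oa* had 0.534 and *Ciita* −0.436. The B cell genes *Cd79b* and *Cd79a* had 0.736 and −0.367, and the macrophage marker *Cd68* had 0.778.
The 5 female libraries played no part in that choice. Over them r was 0.998 for *Hadh*, 0.989 for *Ifitm1*, 0.977 for *Hrh4*, 0.973 for *Pik3ap1* and 0.455 for *Aldh9a1*. Among the markers it was 0.984 for *Cd79b*, 0.844 for *Cd68* and −0.038 for *Cd79a*. Of the 10 genes, 8 rose in activated “wannabes” (11.3% of all genes tested did). *Hrh4* rose from 1 to 7 counts in resting to 897 to 1067 in activated “wannabes” (log2 fold change 8.17, standard error 0.46, edgeR adjusted p = 0.000288) and *Ifitm1* from 1 to 9 to 895 to 993 (7.84, standard error 0.51, adjusted p = 0.000454). *Hadh* rose less, from 55.8 to 90.5 CPM (0.70, standard error 0.08, edgeR adjusted p = 0.0028). *Aldh9a1* (0.06, edgeR adjusted p = 0.664) and *Aipl1* (2.04, 0.178) were not called. Of the 8, *Pdlim4*, *Map3k6*, *Prss30* and *Ier3* lost their calls without either activated library.

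**Figure D5:**
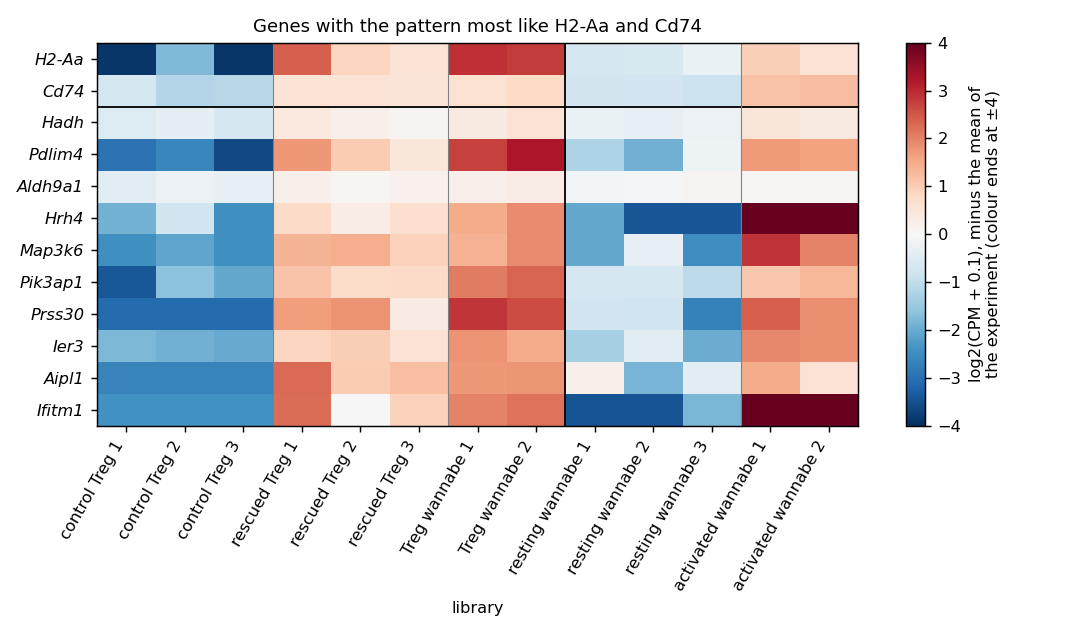
Level of *H2-Aa*, *Cd74* and the 10 genes whose pattern was most like theirs over the male libraries. Rows are genes, columns are libraries and colour is log2(CPM + 0.1) minus the gene's mean in that experiment. All 10 are lowest in the 3 control Treg libraries, as they were chosen to be, and in the female libraries *Hrh4* and *Ifitm1* differ most while *Aldh9a1* hardly differs.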

How the data were processed

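RNA of sorted cells was amplified with SMART-Seq v4, a kit that does not mark strand. The authors aligned reads to GRCm38 with STAR 2.7.3a, used GATK for realignment and then tallied reads on genes with R. The deposited values are whole-number counts without normalization. The gene annotation and strand setting are not given in the sources used here. Entries without a gene name (4 of 24421, at most 0.00841% of counts) were left out.

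Counts were analysed with edgeR 4.0.16 in R 4.3.3 (TMM, filterByExpr, quasi-likelihood F test, Benjamini-Hochberg adjustment over all genes tested, calls at an adjusted p under 0.05). One fit held the 8 male and another the 5 female libraries, and both were tested on simulated data. Biological coefficients of variation were 0.51 and 0.171. Groups and replicate numbers came from titles and genotypes, and the study's methods give 3 and 2 mice for the female groups and biological replicates for the male groups. Standard errors are of log2 fold changes. Lengths, positions and overlaps came from GENCODE M21 (23607 genes matched by symbol), and promoter sequences from RefSeq.

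All members were named in every library. Of the pathway genes, those past the threshold and *H2-DMb2*, *H2-Oa*, *H2-Ob*, *H2-Eb2*, *Ifng*, *Nlrc5* and *B2m* were named, as were the 10 genes most like the members with a mean normalized count of at least 20. *Brd2*, *Dexi*, *BC051537*, *Foxp3*, *Thy1*, *H2-D1*, *H2-K1* and single markers were named as checks, or after their values were seen. Results for some listed genes are not reported here. The members and lists were chosen with earlier results of these data known. The alternatives were DESeq2 1.42.0, its size factors, no filter, the replicate block, a fit of only the groups compared and each library left out.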

Additional observations from a re-analysis of the deposited data

How the results depend on the processing

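The direction of *Cd74*, *H2-Aa* and *H2-DMa* was the same under every alternative in each comparison, and *Ciita* reversed between rescued Treg cells and “wannabes” (log2 fold change 0.25) to −0.44 without rescued Treg replicate 2 and −0.29 without Treg “wannabe” replicate 1, with a range of −0.44 to 1.08 over the fits that left out 1 library. With any 1 library left out, the members called numbered 1 to 3 in rescued against control Treg cells, 3 in “wannabes” against control Treg cells, 1 in rescued Treg cells against “wannabes” and 1 to 3 in activated against resting “wannabes”. The pathway genes called numbered 0 to 3 (2 with all libraries), 5 to 13 (9), 5 to 10 (9) and 4 to 16 (16) in the same order. DESeq2 called 9 pathway genes in rescued against control Treg cells and 14 in “wannabes” against control Treg cells. In rescued against control Treg cells 5 were called with no filter and 4 in a fit of only the groups compared, and that fit called 5 in rescued Treg cells against “wannabes”. It also lost the *H2-Aa* call in rescued against control Treg cells (log2 fold change 5.13), an alternative added after the data were seen. The cause of these changes was not tested.

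Libraries share replicate numbers across groups. The deviations of same-numbered libraries from their group means correlated at −0.027 to 0.084 over 7 male pairs and −0.029 to −0.017 over 2 female pairs. Pairs of unlike number gave −0.129 to 0.074 in males and −0.01 to 0.029 in females. In a group of 2 libraries the deviations mirror each other, so these values cannot decide whether the numbers pair libraries. With the replicate block, 3, 3, 1 and 2 members and 3, 12, 10 and 14 pathway genes were called in the order above, and the call lost among the members was *H2-Aa* in activated “wannabes” (log2 fold change 1.50, edgeR adjusted p = 0.0874). Groups of 2 or 3 libraries, and few reads for *H2-Aa* and *Ciita*, limit the precision. The numbers of reads say nothing of *H2-Ab1*, *H2-Eb1* and *H2-DMb1*.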
